A study of Mus musculus with 12 samples.

Results

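The genes Lpl, Fabp4, Fabp5 and Plin2, which serve fatty-acid release, transport and storage, were followed in cultured mouse macrophages given oxidised low-density lipoprotein (oxLDL). They were taken by 4 listed Ensembl transcript IDs, ENSMUST00000015712 (Lpl), ENSMUST00000029041 (Fabp4), ENSMUST00000029046 (Fabp5) and ENSMUST00000000466 (Plin2). All 4 were present among the 74007 probe sets measured. The macrophages were grown with recombinant human M-CSF, at 50 ng/mL, from bone marrow of 12 female C57BL/6J-background mice aged 8 to 12 weeks. Of these mice, 6 were wild type (WT) and 6 were Atf3-/-. Atf3 encodes a stress-induced transcription factor of the ATF/CREB family. The WT group without stimulus and the WT group with oxLDL had 3 mice each, and so had the Atf3-/- group without stimulus and the Atf3-/- group with oxLDL. The oxLDL was human LDL oxidised with copper sulphate, at 25 ug/mL for 24 h, and the unstimulated groups received none. The labels name the knockout genotype with no further detail of the allele. The comparisons ask how oxLDL loading changed these genes and whether the loss of Atf3 altered their level or their response.

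Lipoprotein lipase (Lpl) is a secreted enzyme that releases fatty acids from triglyceride-rich lipoproteins. The small cytosolic proteins Fabp4 and Fabp5 bind the fatty acids inside the cell, and perilipin 2 (Plin2) coats the lipid droplets in which esterified lipid is stored. In macrophages Fabp4, Fabp5, Lpl and Plin2 are known as genes that rise with lipid loading, and several are known targets of the lipid-activated PPAR nuclear receptors. Fabp4, Lpl and Plin2 are also abundant in fat cells, which marrow contains.

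Each value is an expression level on the log2 scale for 1 transcript-level probe set on 1 array, and a difference of 1 is a 2-fold change. Array medians lay between 8.42 and 8.57. Replicates of WT differed far more than replicates of Atf3-/-: the median SD of a tested probe set was 0.168 and 0.244 in the WT groups without and with oxLDL, and 0.0506 and 0.0629 in the corresponding Atf3-/- groups. Across probe sets, unstimulated WT replicate 1 correlated with the unstimulated Atf3-/- arrays at 0.954 on average and with its group mates at 0.946, and no other array was closer to the other genotype than to its own group. WT oxLDL replicate 3 had the lowest mean correlation with its own group, 0.922. The differences are given below with and without these 2 arrays where leaving them out moved a value by over 1.5 times or changed a call. Differences were tested with limma on all 12 arrays, with a separate spread for each group, over the 39620 probe sets above the array median on at least 3 arrays. A probe set passed at a Benjamini-Hochberg adjusted p under 0.05, and every adjusted p below is from limma over those probe sets. Lpl, Fabp5 and Plin2 were above the median on all 12 arrays. Fabp4 was above it on 5, the 3 Atf3-/- arrays with oxLDL and 1 in each WT group, so the group in which it is highest was enough for it to be tested. The other IDs of the table are not paired with gene names, so Atf3 itself, the markers of macrophages, fat cells and other cell types, and the other genes of the pathway were not analysed here. In such bulk RNA, fewer cells of a type and less RNA per cell cannot be told apart.

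In Atf3-/- macrophages Lpl, Fabp4, Fabp5 and Plin2 all rose with oxLDL. Fabp4 rose 2.56-fold, Fabp5 1.68-fold, Plin2 1.58-fold and Lpl 1.44-fold. In WT macrophages the mean of each gene was also higher with oxLDL, by 1.40-fold for Plin2, 1.38-fold for Fabp4, 1.33-fold for Fabp5 and 1.23-fold for Lpl, but none passed the test. In Atf3-/-, 4 of 4 passed as rises, where 15.1% of all tested probe sets did. For 4 of 4 the 3 arrays with oxLDL also lay above the 3 without, as for 24.0% of all tested probe sets, and the median difference was 0.70 over the genes and 0.025 over all tested probe sets (log2). In WT, 0 of 4 passed in limma, where 0.414% of all tested probe sets passed as rises. An unadjusted p under 0.05 was seen there for 1 of 4, and for 10.4% of all tested probe sets. The median difference there was 0.44 over the genes and -0.015 over all tested probe sets (log2). The fit with a single spread for all 12 arrays also called 0 of 4 in WT, where 818 of all 39620 tested probe sets passed as rises. In that fit Plin2 was at an adjusted p of 0.0719 and Fabp5 at 0.0852. Without both WT arrays that stand apart 2 of 4 passed, where 1124 of all tested probe sets passed as rises. With quantile normalization in addition 3 of 4 passed, where 2167 of all passed as rises. On data simulated under the model of this fit, with 200 changed probe sets, the main test recovered 0% of log2 changes of 0.5 in WT. It made 57 calls there, against 712 in the data, so recovery in the data may differ. A difference of this size that did not pass is therefore not shown to be absent.

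**Figure D1:**
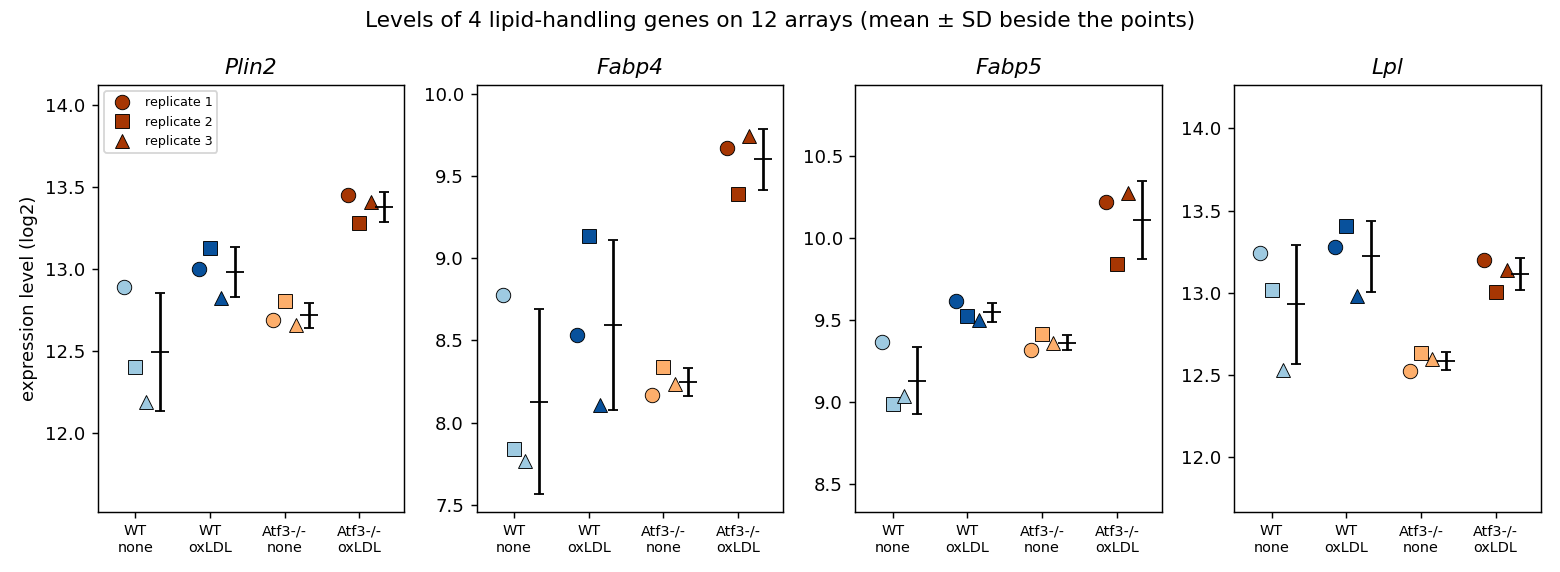
Expression level (log2) of Plin2, Fabp4, Fabp5 and Lpl on each of 12 arrays, with a panel per gene, a colour per group and a marker shape per replicate number. The black bar beside each group is the mean ± SD of 3 arrays. In each panel the 3 Atf3-/- arrays with oxLDL lie above the 3 without it. The WT groups are more widely spread for Plin2, Fabp4 and Lpl, and for Fabp5 the Atf3-/- group with oxLDL is the widest.

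Lpl, the secreted lipase, rose least of the 4 genes in Atf3-/- macrophages. Unstimulated Atf3-/- arrays lay at 12.53, 12.63 and 12.60 (log2 level), and Atf3-/- arrays with oxLDL at 13.20, 13.00 and 13.14. These groups did not overlap, with a gap of 0.37 between them. The difference of 0.53 (SE 0.063, 95% interval 0.39 to 0.66) had an adjusted p of 1.52e-05. Unstimulated WT arrays lay at 13.24, 13.01 and 12.53, and WT arrays with oxLDL at 13.28, 13.41 and 12.98. The WT groups overlapped, because the highest unstimulated array, replicate 1, lay above the lowest with oxLDL, replicate 3. The WT difference of 0.29 (SE 0.23, 95% interval -0.19 to 0.78) did not pass, with an adjusted p of 0.849. It was 0.096 without unstimulated WT replicate 3, 0.20 to 0.45 without any other 1 of the 6 WT arrays, and 0.57 without both arrays that stand apart, which did not pass either (adjusted p = 0.106, range over the 24 settings 0.00593 to 1). The call in Atf3-/- was lost in the fit with 1 spread for all 12 arrays (SE 0.16, adjusted p = 0.169), and over all 24 alternative settings its adjusted p ran from 1.44e-07 to 0.169.

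Fabp4, the fatty-acid binding protein named for fat cells, had the largest rise of the 4 genes in Atf3-/- macrophages. On unstimulated Atf3-/- arrays its level was 8.17, 8.34 and 8.24, and with oxLDL it was 9.67, 9.39 and 9.75. The gap between these groups, 1.06, was larger than the range within either. The difference of 1.36 (SE 0.096, 95% interval 1.15 to 1.56) had an adjusted p of 1.04e-07, and only 10 of the 39620 tested probe sets had a larger rise in Atf3-/-. Fabp4 met the filter only through these arrays with oxLDL, and without the filter the adjusted p was 2.54e-05. On unstimulated WT arrays the level was 8.77, 7.84 and 7.77, and with oxLDL it was 8.53, 9.14 and 8.11. The WT groups overlapped widely: unstimulated replicate 1 exceeded 2 of the 3 oxLDL arrays. The WT difference was 0.47 (SE 0.34, 95% interval -0.27 to 1.20, adjusted p = 0.823). It was 0.79 without unstimulated WT replicate 1, 0.71 without WT oxLDL replicate 3, 0.19 without WT oxLDL replicate 2 and 1.03 without both unstimulated replicate 1 and oxLDL replicate 3. Of these, the last alone passed (adjusted p = 0.0227), and over all 24 settings the adjusted p in WT ran from 0.00822 to 1.

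Fabp5, the epidermal-type relative of Fabp4, had the narrowest spread of the 4 genes in WT as deposited. This depended on scaling. After quantile normalization its SD in WT with oxLDL was 0.214, against 0.037 for Plin2, 0.05 for Lpl and 0.47 for Fabp4. The levels that follow are as deposited. Its level was 9.37, 8.99 and 9.04 on unstimulated WT arrays and 9.61, 9.53 and 9.50 on WT arrays with oxLDL. Here the 3 arrays with oxLDL all lay above the 3 without, which as deposited held for 5.43% of all tested probe sets and for none of Lpl, Fabp4 and Plin2. After quantile normalization it held for Plin2 too. The WT difference of 0.42 (SE 0.28, 95% interval -0.18 to 1.01) did not pass, with an adjusted p of 0.771. It was 0.345 to 0.534 with 1 WT array left out and 0.56 without both arrays that stand apart, none of which passed. The SE from the spread of Fabp5 itself on these 6 arrays was 0.12, smaller than that of the fit, which scales the spread of a gene over all 12 arrays by a factor common to all probe sets of a group. On Atf3-/- arrays the level went from 9.32, 9.41 and 9.36 to 10.22, 9.84 and 10.27 with oxLDL. These groups did not overlap either, and replicate 2 lay well below the other oxLDL arrays. The rise of 0.75 (SE 0.079, 95% interval 0.58 to 0.92) had an adjusted p of 4.30e-06. Its SE from its own spread was 0.14, larger than that of the fit.

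Fabp4 and Fabp5 are neighbours in the genome. In the RefSeq gene table of assembly GRCm38.p6 they lie on the same chromosome with 4 genes between them, 2 of them protein-coding, Pmp2 and Fabp9, which belong to the same protein family. The difference with oxLDL in Atf3-/- was 1.36 for Fabp4 and 0.75 for Fabp5.

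Plin2 is the droplet coat protein. Its gene is a known PPAR target. The 250 bases before its transcript start are shown, from RefSeq, because of the 4 genes only Plin2 was in the promoter set used here (GRCm38.p6, chr4:86670060-86670309, minus strand, capitals mark the match described next).
Plin2 promoter: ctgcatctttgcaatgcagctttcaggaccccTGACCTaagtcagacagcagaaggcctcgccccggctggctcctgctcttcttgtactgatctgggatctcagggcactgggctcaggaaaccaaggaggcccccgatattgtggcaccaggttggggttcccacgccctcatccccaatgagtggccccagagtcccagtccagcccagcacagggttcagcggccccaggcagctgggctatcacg
The capitals mark the single match, on the opposite strand, to AGGTCA, the core motif of nuclear receptors, which begins at base -218 from the start. This motif occurs on either strand in 14.0% of the 32851 promoter windows of the same length. There was no match on either strand to the paired PPAR motif AGGTCANAGGTCA, which 0.0335% of windows hold, to the ATF/CREB motif TGACGTCA, which 1.55% hold, or to the AP-1 motif TGANTCA, which 6.75% hold. AGGTCA is also contained in the paired motif. A match describes these letters only and is not evidence of binding.

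The Plin2 level was 12.69, 12.80 and 12.66 on unstimulated Atf3-/- arrays and 13.45, 13.28 and 13.40 with oxLDL. The groups were separated by a gap of 0.47. The difference of 0.66 (SE 0.064, 95% interval 0.52 to 0.79) had an adjusted p of 1.75e-06. In the fit with 1 spread for all 12 arrays the adjusted p was 0.0498, and over the 24 settings it ran from 6.28e-08 to 0.0498. In WT the level was 12.89, 12.40 and 12.19 without stimulus and 13.00, 13.13 and 12.82 with oxLDL. As deposited, the WT groups overlapped only through unstimulated replicate 1, which lay 0.065 above the lowest oxLDL array. The WT difference of 0.49 (SE 0.23, 95% interval 0.005 to 0.97) had an unadjusted p of 0.0479 and an adjusted p of 0.472. Without unstimulated WT replicate 1 it was 0.69, without WT oxLDL replicate 3 it was 0.57, and without both it was 0.77, the only one of these that passed (adjusted p = 0.0203). After quantile normalization the WT groups did not overlap, with the highest unstimulated array at 12.886 and the lowest with oxLDL at 12.987. The difference was then 0.468 and did not pass (adjusted p = 0.0637). Over all 24 settings the adjusted p for Plin2 in WT ran from 6.00e-04 to 1.

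**Figure D2:**
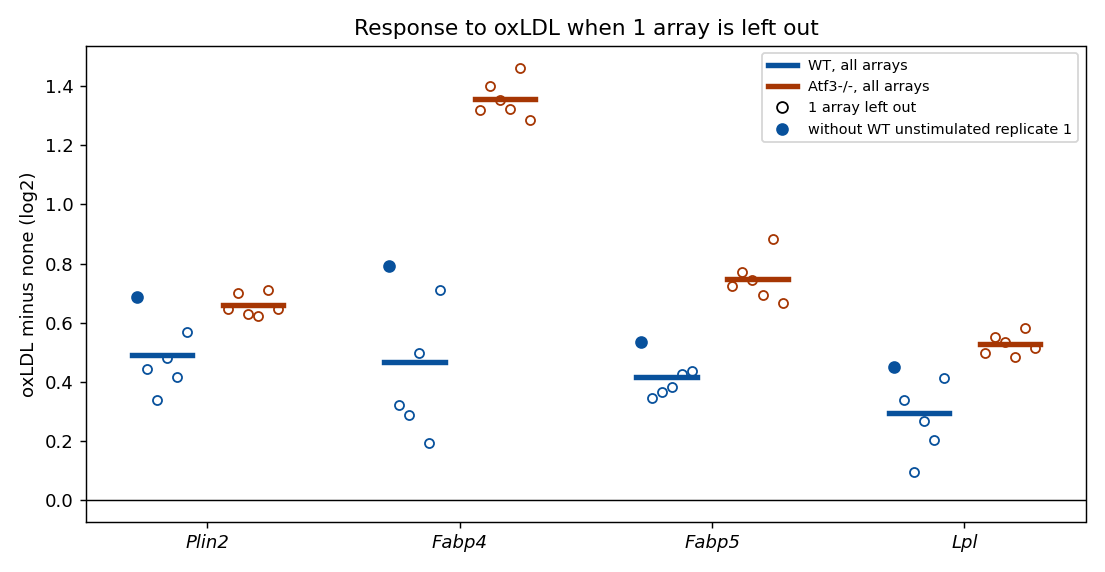
Difference in level with oxLDL (log2) in WT (blue) and Atf3-/- (brown) for each gene, with all arrays (thick lines) and with each of the 6 arrays of that genotype left out in turn (circles). The filled circles leave out unstimulated WT replicate 1 and are the highest WT values for all 4 genes. They lie at 0.69 for Plin2, 0.79 for Fabp4, 0.53 for Fabp5 and 0.45 for Lpl. The Atf3-/- values run from 0.623 to 0.709 for Plin2, 1.286 to 1.463 for Fabp4 and 0.485 to 0.582 for Lpl. For Fabp5 they run from 0.665 to 0.882, against 0.345 to 0.534 in WT.

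Among all tested probe sets, the responses of these genes lay near the upper end in both genotypes. In Atf3-/-, 131 tested probe sets had a larger rise than Fabp5, 187 a larger one than Plin2 and 377 a larger one than Lpl. In WT, 792 had a larger difference than Plin2, 924 a larger one than Fabp4, 1255 a larger one than Fabp5 and 2685 a larger one than Lpl. The number of other probe sets whose differences were at least as large in both genotypes was 10 for Fabp4, 130 for Fabp5, 166 for Plin2 and 354 for Lpl. These ranks are a description, since the genes were chosen as lipid-loading genes with earlier results known.

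**Figure D3:**
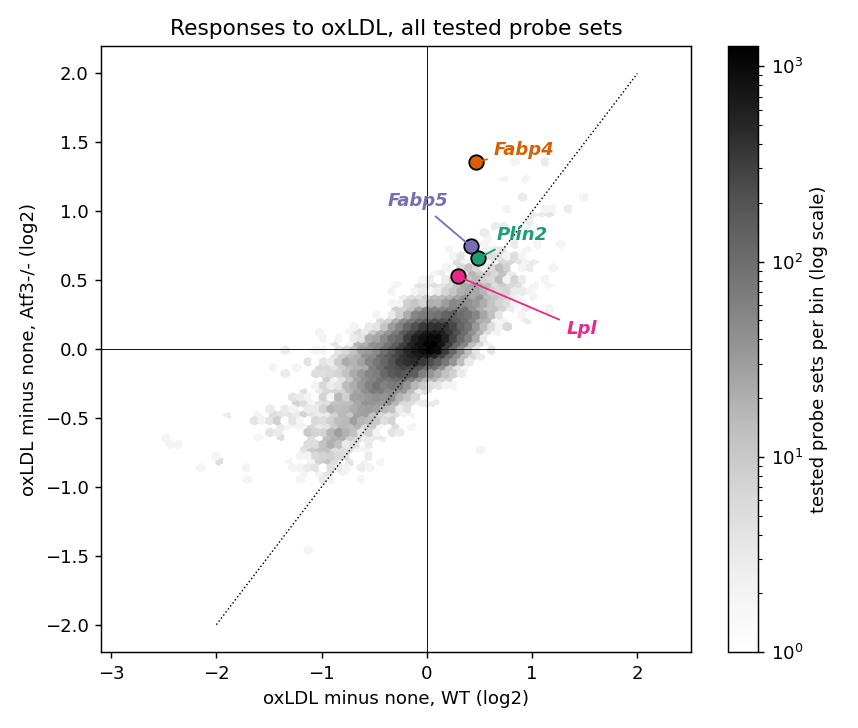
Difference in level with oxLDL (log2) in WT (x axis) and in Atf3-/- (y axis) for all 39620 tested probe sets, binned with a log grey scale, with Plin2, Fabp4, Fabp5 and Lpl as coloured points and a dotted line where both differences are equal. The 4 genes lie in the upper right part and above the dotted line, Fabp4 farthest, at 0.47 in WT and 1.36 in Atf3-/-.

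The responses were not shown to differ between the genotypes. The difference of responses, Atf3-/- minus WT, was 0.89 for Fabp4 (SE 0.36, 95% interval 0.13 to 1.65), 0.33 for Fabp5 (SE 0.29, -0.29 to 0.95), 0.23 for Lpl (SE 0.24, -0.27 to 0.73) and 0.17 for Plin2 (SE 0.24, -0.33 to 0.67), all log2. In limma 0 of 4 passed, with an adjusted p of 1.00 for each, and 1 of 4, Fabp4, had an unadjusted p under 0.05, at 0.0247. Of all tested probe sets 0.00505% passed and 2.55% had an unadjusted p under 0.05. Without unstimulated WT replicate 1 and WT oxLDL replicate 3 the Fabp4 value was 0.32 and that of Fabp5 0.19, that of Plin2 turned to -0.11 and that of Lpl to -0.042. The intervals are wide, so they do not show that the genotypes responded alike.

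**Figure D4:**
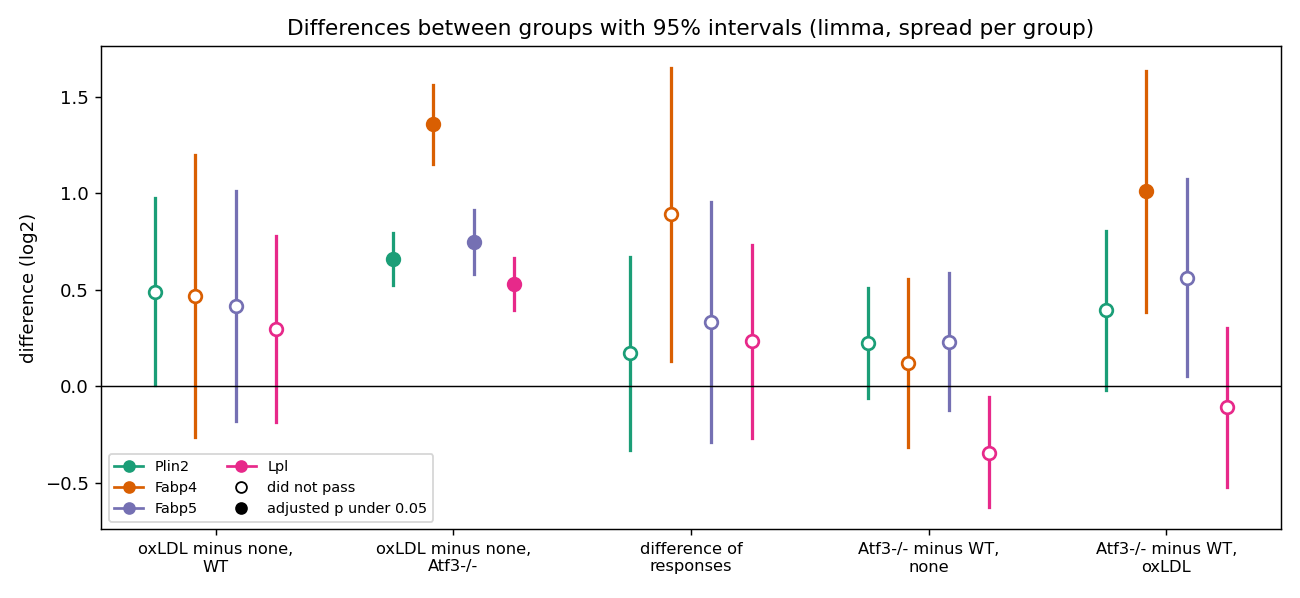
Differences between groups (log2, points) with 95% intervals (lines) from limma for Plin2, Fabp4, Fabp5 and Lpl in 5 comparisons. Filled points passed at an adjusted p under 0.05: all 4 genes for oxLDL in Atf3-/- and Fabp4 for Atf3-/- against WT with oxLDL.

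With oxLDL, Fabp4 was higher in Atf3-/- than in WT macrophages. It lay at 9.60 ± 0.19 against 8.59 ± 0.52 (mean log2 level with SD, 3 arrays in each group), a 2.02-fold difference of 1.01 on the log2 scale (SE 0.29, 95% interval 0.39 to 1.64, limma adjusted p = 0.0254). All 3 Atf3-/- arrays lay above all 3 WT arrays, with a gap of 0.25. Fabp4 met the filter only through its level on the 3 Atf3-/- arrays with oxLDL, and without the filter the adjusted p was 0.0441. The call was lost without WT oxLDL replicate 1, where the difference was 0.98 (SE 0.47, adjusted p = 0.361). Over the 24 settings the adjusted p ran from 5.50e-11 to 0.361. Fabp4 was the 1 gene of the 4 that passed as higher, where 13.8% of all tested probe sets did.

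Fabp5 and Plin2 with oxLDL also lay higher on every Atf3-/- array than on any WT array, as 26.7% of all tested probe sets did, but did not pass. Fabp5 was at 10.11 ± 0.24 against 9.55 ± 0.059, a difference of 0.56 (SE 0.24, limma adjusted p = 0.117). It passed without WT oxLDL replicate 3, at 0.54 (adjusted p = 0.0134), and without Atf3-/- oxLDL replicate 2, at 0.70 (adjusted p = 0.00466), within a range of 7.53e-09 to 0.572 over the 24 settings. Plin2 was at 13.38 ± 0.089 against 12.98 ± 0.15, a difference of 0.39 (SE 0.19, limma adjusted p = 0.174). Plin2 passed without both WT arrays that stand apart, at 0.314 (adjusted p = 0.0431), and after quantile normalization, at 0.306 (adjusted p = 0.0416). With only the 6 oxLDL arrays in the fit, Plin2 (adjusted p = 0.0273) and Fabp5 (adjusted p = 0.0332) both passed. Over the 24 settings the adjusted p of Plin2 ran from 1.34e-07 to 0.674.

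Lpl had a lower mean in Atf3-/- in both states, and neither difference passed. Without stimulus it was at 12.58 ± 0.054 against 12.93 ± 0.36 in WT, a difference of -0.34 (SE 0.13, 95% interval -0.63 to -0.058, limma adjusted p = 0.0707). The WT group reached from 12.53 to 13.24, and its replicate 3 lay within the Atf3-/- range of 12.53 to 12.63. With oxLDL the Lpl difference was -0.11 (SE 0.19, 95% interval -0.52 to 0.30, limma adjusted p = 0.733). It was -0.018 without WT oxLDL replicate 2, -0.23 without WT oxLDL replicate 3 and -0.056 without Atf3-/- oxLDL replicate 2. The unstimulated difference depended on scaling and on 1 array. It passed after quantile normalization, at -0.47 (adjusted p = 4.17e-04), after centring of array medians, at -0.37 (adjusted p = 0.0278), and without unstimulated WT replicate 3, at -0.54 (adjusted p = 0.0248), within a range of 3.46e-04 to 0.387 over the 24 settings. Without unstimulated WT replicate 1 it was -0.19. After quantile normalization the Lpl groups no longer overlapped in either state: without stimulus WT lay at 12.82 to 13.21 and Atf3-/- at 12.49 to 12.55, and with oxLDL WT lay at 13.20 to 13.28 and Atf3-/- at 13.02 to 13.04. With oxLDL that difference of -0.22 did not pass (adjusted p = 0.0598, range over the 24 settings 0.00383 to 0.977).

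Without stimulus the other genes did not pass between the genotypes. The difference, Atf3-/- minus WT, was 0.22 for Plin2 (SE 0.14, 95% interval -0.062 to 0.51), 0.23 for Fabp5 (SE 0.17, -0.12 to 0.59) and 0.12 for Fabp4 (SE 0.20, -0.31 to 0.56). In limma 0 of 4 genes passed, where 26.8% of all tested probe sets passed in either direction. An unadjusted p under 0.05 was seen for 1 of 4, Lpl, at 0.0216, and for 38.8% of all tested probe sets. Plin2 passed without unstimulated WT replicate 1, at 0.42 (adjusted p = 0.0213, range over the 24 settings 0.00502 to 0.810), and its difference was 0.073 without unstimulated WT replicate 3. Without unstimulated WT replicate 1 the Fabp5 difference was 0.35 and that of Fabp4 0.45, and neither passed. The Fabp4 difference turned to -0.023 without unstimulated WT replicate 2 and to -0.060 without replicate 3, so it had no stable direction.

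As deposited, the 4 group means came in the same order for Plin2, Fabp4 and Fabp5. How many of all tested probe sets share this order was not counted. The order from low to high was unstimulated WT, unstimulated Atf3-/-, WT with oxLDL and Atf3-/- with oxLDL. For Plin2 and Fabp5 the unstimulated groups overlapped and the other neighbours in this order did not. With oxLDL, 26.7% of all tested probe sets also had every Atf3-/- array above every WT array. For Fabp4 only the highest group stood apart from its neighbour. The order of its unstimulated groups turned without unstimulated WT replicate 2 and without replicate 3. The order for Lpl was unstimulated Atf3-/-, unstimulated WT, Atf3-/- with oxLDL and WT with oxLDL. As deposited every pair of neighbours overlapped. After quantile normalization the Lpl genotypes no longer overlapped without stimulus or with oxLDL.

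Within a group, the genes were often highest or lowest on the same array. The share of all tested probe sets that were so too differed between these arrays. Unstimulated WT replicate 1 was the highest of its group for all 4 genes, as it was for 36.2% of all tested probe sets, with deviations from the group mean of 0.65 for Fabp4, 0.39 for Plin2, 0.31 for Lpl and 0.24 for Fabp5. WT oxLDL replicate 3 was the lowest of its group for all 4, as for 77.6% of all tested probe sets. Atf3-/- oxLDL replicate 2 was the lowest for all 4, as for 65.5%, and unstimulated Atf3-/- replicate 2 the highest for all 4, as for 45.5%. After quantile normalization only the first of these held for all 4 genes: unstimulated WT replicate 1 was still the highest, as for 36.3% of tested probe sets. WT oxLDL replicate 3 was then the lowest for Fabp4 and Lpl and the highest for Plin2 and Fabp5. Atf3-/- oxLDL replicate 2 was the lowest for Fabp4 and Fabp5 and the highest for Plin2 and Lpl, and unstimulated Atf3-/- replicate 2 was the highest for 3 of the 4. Unstimulated WT replicate 1 lay above all 3 unstimulated Atf3-/- arrays for Fabp4, Plin2 and Lpl, and between them for Fabp5.

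**Figure D5:**
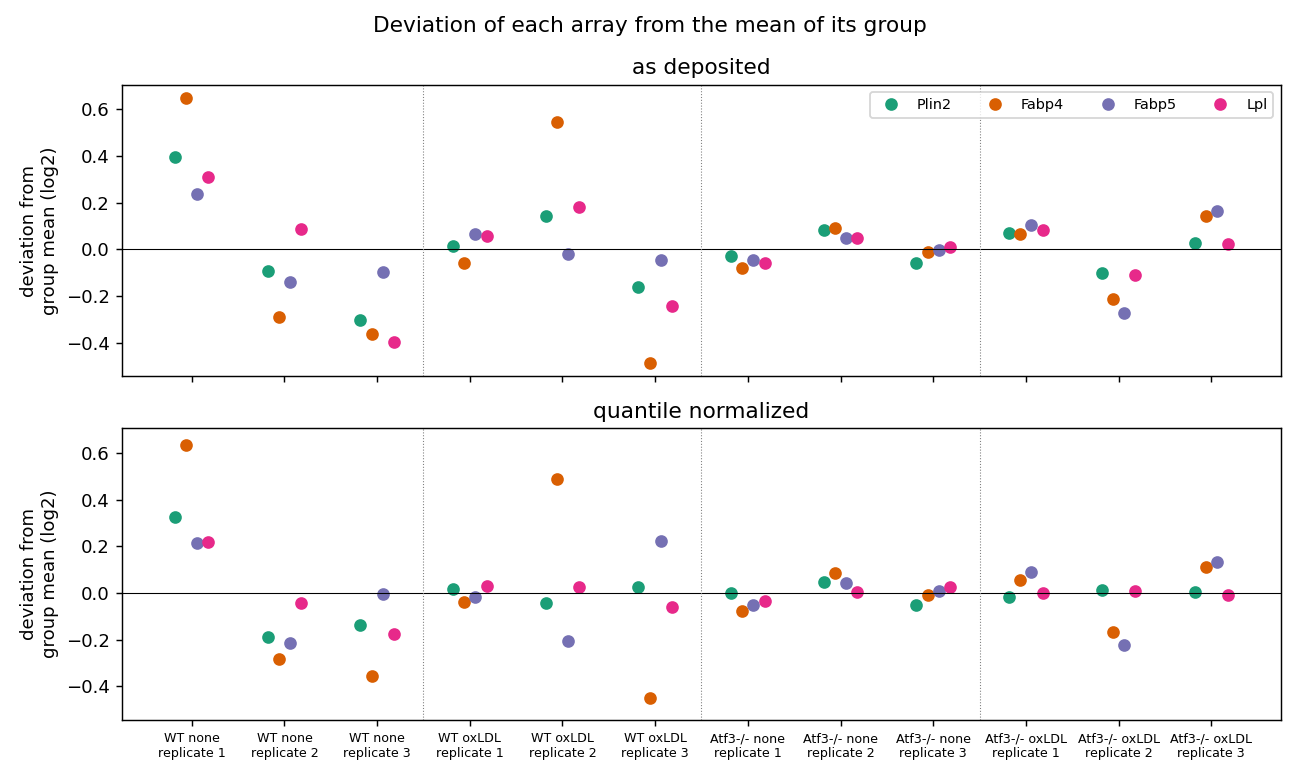
Deviation of each gene's level from the mean of its group (log2) on each of the 12 arrays, as deposited (upper panel) and after quantile normalization (lower panel), with dotted lines between groups. The genes are all above the mean on unstimulated WT replicate 1 in both panels. As deposited, Plin2, Fabp4 and Lpl have smaller SDs in the Atf3-/- groups than in the WT groups, while that of Fabp5 with oxLDL is larger in Atf3-/- (SD 0.236) than in WT (SD 0.059). After quantile normalization the Fabp5 SD with oxLDL is 0.193 in Atf3-/- and 0.214 in WT.

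The profiles of the genes over the 12 arrays were alike to different degrees. Likeness was measured as the root mean square difference between profiles, each centred on its own mean, in log2 units, so smaller is more alike. The measure is not scaled, so a gene with larger changes lies farther from most probe sets. The closest pair was Plin2 and Fabp5, at 0.132, where a typical tested probe set lay 0.405 from Plin2 and 0.429 from Fabp5. Among 39619 other probe sets, Plin2 was number 4 in likeness to Fabp5, and Fabp5 was number 29 in likeness to Plin2. The probe set nearest to Fabp4 lay at 0.155, where a typical one lay at 0.673. Plin2 was number 23 and Fabp5 number 38 in likeness to Fabp4. Fabp4 lay 0.334 from Plin2. Lpl lay 0.290 from Plin2, where a typical tested probe set lay 0.328 from Lpl. The ranks of that pair differed by side: Lpl was number 2769 in likeness to Plin2, and Plin2 number 12121 in likeness to Lpl. In addition, 5 other IDs followed Plin2 and 1 followed Lpl to within 0.15 on every array. Such IDs may read the same transcript and are not counted as further measurements. The IDs nearest to each gene are not paired with names here and are not listed.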

How the data were processed

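RNA of bone-marrow-derived macrophages was hybridised to 12 Affymetrix Mouse Exon 1.0 ST arrays. Per the labels, the authors deposited log2 levels, with 1 summary value for each transcript-level probe set. The submitters' processing notes list PLIER and Affymetrix Power Tools. The background correction, the scaling between arrays and the genome build were not given in the sources used here. All told, the table has 74007 probe sets with 0 missing values. Its IDs are Ensembl transcripts, and the gene table used here holds an Ensembl ID for 0 of 49997 entries. The names of the 4 genes come from the list that chose them. The pathway and cell type lists could therefore not be run.

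Groups follow the labels. Probe sets above the array median on at least 3 of 12 arrays were tested (39620, or 53.5%). The test was limma 3.58.1 in R 4.3.3, with a mean per group, arrayWeights with 1 variance per group, eBayes with an intensity trend (8 residual degrees of freedom, prior 7.13), and Benjamini-Hochberg adjustment over the tested probe sets of each of 5 comparisons. A separate spread was used because the groups differ in it. On simulated data with the groups' own spreads, 200 changed of 39620 probe sets and oxLDL in WT compared, 12.3% of the calls of this fit were false, against 80.7% with 1 shared spread. Recovery of a log2 change of 1 was 50% for oxLDL in WT and 100% for oxLDL in the knockout, and recovery of a log2 change of 0.5 was 0% and 92%. The simulated noise was independent between probe sets and was scaled by group as this fit assumes, so the simulation was built on the model of this fit. For oxLDL in the knockout 4% of its calls were false, against 0% with 1 shared spread. For genotype without stimulus the shares were 4.41% against 0.99%, and for genotype with oxLDL 8.86% against 45.1%. A fold change is the log2 difference taken as an exponent of 2. No exact permutation test was used for single genes, because its smallest possible p with 3 arrays on each side is 0.1. The genes, lists and tests were chosen with earlier results of these data known. The listed genes are counted by their calls beside those of all tested probe sets, and no test over the list was made.

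The labels describe separate mice. Whether mice of a group were processed together is not stated, so p-values measure only the spread between these samples, which may be technical, and genotype and processing day cannot be told apart. No 2 arrays held identical values. The number of arrays limits the precision. Alternatives covered the variance model, the arrays fitted, the filter, scaling, an offset of 16, the prior, a replicate block and leaving out arrays. The promoter of Plin2 is from RefSeq (GRCm38.p6) and was matched by symbol. The promoter set held only this 1 of the 4 genes.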

Additional observations from a re-analysis of the deposited data

How the results depend on the processing

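Of 476 values, 1 for each gene, comparison and alternative setting, 438 kept their direction and their side of the threshold, 31 passed only under the alternative, 2 lost a call and 5 turned in sign. Leaving out an array outside a comparison of 2 groups cannot change its difference, so the direction was fixed in advance for those values. The count of 438 is therefore not a measure of stability. The rise in the knockout passed for 3 or 4 of the 4 genes in all 24 settings. For oxLDL in WT, the genes that passed numbered 0 in the main test and 0 in every fit that left out 1 array. Without both WT arrays that stand apart they numbered 2, where 2162 of all 39620 tested probe sets passed. With these left out and quantile normalization (chosen after seeing the data) they numbered 3, where 4703 passed. With a weight for each array they numbered 3, where 9835 passed. That last fit did not reach its tolerance and gave WT oxLDL replicate 1 99.99% of the weight of its group. It also gave 4 genes for knockout against WT with oxLDL, where 33266 of all 39620 tested probe sets passed. For the difference of responses it gave 1 gene, where 1406 passed. For knockout against WT without stimulus (0 genes in the main test), quantile normalization, centring of medians and leaving out both WT arrays gave 1 each. The last with quantile normalization gave 3, and leaving out 1 array gave 0 to 1. In the same order 13536, 13003, 11808 and 19585 of all 39620 tested probe sets passed, and 4388 to 12487 with 1 array left out. With oxLDL (1 gene in the main test), 1 shared spread and quantile normalization gave 2 each, and only the arrays compared 3. Leaving out both WT arrays gave 3, with quantile normalization in addition 4, and leaving out 1 array 0 to 2. In the same order 11427, 15007, 7477, 19720 and 21424 of all tested probe sets passed, and 391 to 19859 with 1 array left out. The values that turned were those of Fabp4 without stimulus (-0.023 and -0.060 without unstimulated WT replicates 2 and 3; -0.060 to 0.445 over the fits that left out 1 array), of the difference of responses for Plin2 (-0.027 without unstimulated WT replicate 1; -0.027 to 0.321 over the fits that left out 1 array; -0.107 without both WT arrays) and of that for Lpl (-0.042 without both). The cause of these changes was not tested. The fits without both WT arrays leave 2 arrays in each WT group.

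The count of all probe sets that passed also depended on the setting. Leaving aside the fit with a weight for each array, it was 712 (2 to 4703) for oxLDL in WT, 10323 (604 to 13634) for oxLDL in the knockout, 10627 (4388 to 19585) for genotype without stimulus, 7471 (391 to 21424) for genotype with oxLDL and 2 (0 to 103) for the difference of responses. The lowest count for oxLDL in the knockout came from 1 shared spread, and the lowest for oxLDL in WT and for genotype with oxLDL from leaving out WT oxLDL replicate 1. Adjusted for the replicate number as a replicate block, 0, 4, 0, 1 and 0 genes passed in the 5 comparisons in the same order, as in the main test. The numbers do not pair the arrays: deviations of same-numbered arrays from their group means had correlations across probe sets of -0.31 to 0.51, and 4 of 18 such pairs were over 0.1.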
